A study of Drosophila melanogaster with 33 samples.

Results

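The last 10 days of an aging course in male fly heads were examined by setting the 2 libraries of male day 50 (replicates 1 and 2) against the 3 libraries of male day 40, which are 5 of the 33 libraries of the series. All flies were CantonS, a wild-type laboratory strain of Drosophila melanogaster, and no mutation, transgene or drug was involved. Flies were left to mate for 3 days, the sexes were then separated, and males aged without females at 25 °C under 12 h of light and 12 h of dark until they were frozen. Each library was made from about 100 pooled heads. Total RNA was depleted of ribosomal RNA and sequenced, so that linear transcripts and circular RNAs were read from the same library. The rest of the series covers both sexes at days 0, 10, 20, 30, 40 and 50, and the 3 female libraries of day 40 and the 3 of day 50 gave the same step in the other sex.

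Circular RNAs (circRNAs) form by back-splicing, in which the end of an exon is joined to a splice site upstream of it. The closed ring has no free ends, resists exonucleases and decays slowly, and in flies circRNAs are abundant in neurons and are known to accumulate with age. A fly head also holds the eye, muscle and a layer of fat body, the organ that stores fat and protein and secretes antimicrobial peptides. The Toll and Imd pathways drive those peptides, and their level is known to rise with age. In pooled heads, fewer cells of a type and less RNA per cell cannot be told apart.

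Values below are normalized reads, that is, reads divided by one size factor per library. The 5 libraries held 46018344 to 70295324 linear reads and 126163 to 235216 back-splice reads of the filtered circRNAs. Male day 40 replicate 1 stood apart: in it, GC-rich genes lay 0.34 log2 units higher relative to GC-poor genes than in its 2 companions, whereas in the other 4 libraries this offset lay between -0.17 and 0.04, and circMbl took 14.6% of its circRNA reads against 19.4% to 20.3%. Values without it are given beside the gene groups whose count of calls it altered. The markers of head tissues were all read: the 7 photoreceptor markers summed to 1390410 to 1441820 at day 40 and 1204890 to 1222950 at day 50, and the 5 neuronal markers to 214174 to 240297 and 221756 to 224455. Of the markers a head should lack, those of gut summed to 276 to 319 and those of ovary to 9.27 to 17.4, whereas testis and accessory gland markers reached 401 to 513, most of it Acp36DE.

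Of 12685 linear genes tested, 203 rose (1.6%) and 228 fell (1.8%) at an adjusted p below 0.05 and a log2 difference beyond 0.5 (limma over all libraries, Benjamini-Hochberg adjustment). These 2 shares are the background for the counts of calls in each gene list below. The median difference over all linear genes was 0.00 on the log2 scale. Both day 50 libraries lay above all 3 day 40 libraries in 17.6% of the linear genes and below them in 18.4%, so a lack of overlap alone was common here. Without day 40 replicate 1, 193 rose and 177 fell, of which 156 and 164 were among the first 203 and 228, and without day 50 replicate 2 119 rose and 154 fell. The genes that rose included antimicrobial peptides and their regulators, small heat shock proteins and Arc1. Those that fell included storage proteins, enzymes of fatty acid synthesis and of the pentose phosphate pathway, neuropeptide genes and the carbonic anhydrase gene CAH5.

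Antimicrobial peptides were the list with the largest median difference. Of 30 peptide genes tested, 9 rose and 2 fell, and their median log2 difference was 0.99 against 0.00 over all genes. Without day 40 replicate 1, 7 rose and 1 fell. Drs, the antifungal peptide Drosomycin under Toll control, had 3246, 2896 and 2717 at day 40 and 22898 and 13601 at day 50. The day 50 libraries lay well above the day 40 libraries and 6.18-fold higher on average, with a log2 difference of 2.58 ± 0.40 (SE), adjusted p = 0.000109. Mtk, the peptide Metchnikowin, gave 2686, 2213 and 2355 at day 40 and 11693 and 9993 at day 50, a difference of 2.16 ± 0.49 (SE), adjusted p = 0.00479. AttC, an Attacin active on Gram-negative bacteria, gave 34504, 24524 and 25127 at day 40 and 120439 and 125761 at day 50, a difference of 2.15 ± 0.51 (SE), adjusted p = 0.00675. DptB, a Diptericin of the Imd pathway, gave 12433, 7614 and 7823 at day 40 and 46026 and 44810 at day 50, and the 2 day 50 libraries were close to each other, with a difference of 2.33 ± 0.61 (SE), adjusted p = 0.0137. The end of DptB (chr2R:18867391-18867895) overlaps CG43109, which also rose by 2.25, so reads of that stretch may belong to either gene. Some of these calls needed both day 50 libraries: DptB was not called without replicate 1 or without replicate 2 of day 50 (adjusted p = 0.0929 and 0.0998), nor was AttC (0.0516 and 0.0724), and Mtk was not called without replicate 1 (0.0585).

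IBIN, a small peptide gene known to be induced by infection, had a low and even level at day 40 and a high one at day 50, with 148, 139.6 and 132 at day 40 and 1189 and 959 at day 50 and a difference of 2.93 ± 0.59 (SE), adjusted p = 0.00119. The Bomanins, short secreted peptides of the Toll response, were represented by BomS1 with 3953, 5180 and 5090 at day 40 and 11006 and 7771 at day 50 and a difference of 0.97, and by BomT1 and BomBc1 with differences of 1.21 and 1.52. BomBc1 rested largely on one library, with 648, 835 and 713 at day 40 and 3602 and 1203 at day 50, and neither it nor BomT1 was called without day 40 replicate 1. Def, the peptide Defensin, gave 1558, 1286 and 1328 at day 40 and 1824 and 3362 at day 50, a difference of 0.84, and the 2 day 50 libraries were as far apart as the group means. A pair of Drosomycin-like genes went the other way, Drsl4 with 1023, 544 and 708 at day 40 and 389.6 and 313 at day 50 and a difference of -1.07 and Drsl5 with -0.84. Drsl5 was no longer called without day 40 replicate 1, which held the highest value of both genes.

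**Figure D1:**
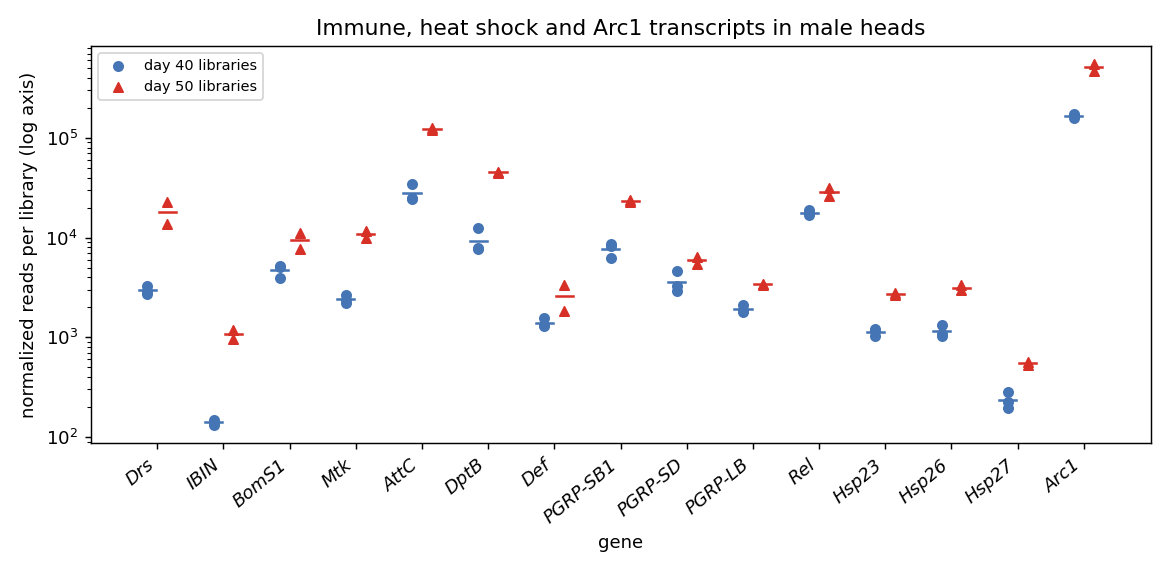
Normalized reads (log axis) of 15 genes that rose in male heads, with circles for the 3 day 40 libraries, triangles for the 2 day 50 libraries and bars for group means. In every gene shown the day 50 libraries lie above all day 40 libraries, with the widest gap in IBIN.

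Genes that sense bacteria or tune the response rose as well. Of 36 genes of peptidoglycan recognition and Toll or Imd signalling, 8 rose and none fell, against 1.6% and 1.8% of all linear genes. The median difference of the list was only 0.11. Rel, the NF-κB factor at the end of the Imd pathway, gave 17453, 18736 and 16768 at day 40 and 25864 and 31558 at day 50, a difference of 0.70 ± 0.08 (SE), adjusted p = 1.05e-06. PGRP-SB1, a secreted amidase that cuts peptidoglycan, gave 8721, 6238 and 8150 at day 40 and 22523 and 23625 at day 50, a difference of 1.60 ± 0.23 (SE), adjusted p = 3.26e-05. Among the negative regulators of Imd, PGRP-LB, an amidase that removes the inducer, rose by 0.82 from 1932 ± 163 (SD, n = 3) to 3408 ± 66.7 (SD, n = 2) normalized reads. PGRP-LF, a receptor that blocks signalling, rose by 0.78, pirk, an intracellular inhibitor, by 0.81, and PGRP-SC2, another amidase, by 1.64. The sensors PGRP-SD and PGRP-SA rose by 0.75 and 0.61. PGRP-SC2 rested mainly on one library, with 1099, 1120 and 1223 at day 40 and 5272 and 2412 at day 50, and was not called without day 40 replicate 1. Of the hemocyte markers, the blood cells of the fly, none was called: of 11 tested none was called, and the 6 defining markers summed to 24848 to 29099 at day 40 and 24535 to 28677 at day 50.

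The promoter of PGRP-SD is shown because it holds a κB consensus, the site type that NF-κB factors such as Rel are known to bind. The window runs from 250 bases before to 50 bases after the annotated gene start in the Release 6 genome (dm6 coordinates, BDGP6.54 annotation), and capitals mark the 2 overlapping matches found on the reverse strand. The same search on both strands found the consensus in 6.06% of the promoters of 12572 tested genes and none in the windows of Drs, PGRP-SB1 and PGRP-LB.
PGRP-SD (chr3L:7650930-7651229, strand +): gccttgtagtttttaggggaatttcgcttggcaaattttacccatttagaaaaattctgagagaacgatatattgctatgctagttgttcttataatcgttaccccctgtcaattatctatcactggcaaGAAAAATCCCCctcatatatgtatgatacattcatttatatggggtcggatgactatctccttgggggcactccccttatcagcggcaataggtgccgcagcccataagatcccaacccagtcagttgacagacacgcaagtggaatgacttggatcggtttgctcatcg

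Small heat shock proteins, chaperones that hold unfolded proteins, showed 3 rises among 7 genes tested and no fall, with a median difference of 0.51. Hsp26 gave 1328, 1077 and 1039 at day 40 and 2976 and 3329 at day 50, a difference of 1.46 ± 0.19 (SE), adjusted p = 6.42e-06. Hsp23 gave 1208, 1147 and 1039 at day 40 and 2664 and 2770 at day 50, a difference of 1.27 ± 0.16 (SE), adjusted p = 3.61e-06, and Hsp27 gave 285, 226 and 197 at day 40 and 533 and 566 at day 50, a difference of 1.23 ± 0.21 (SE), adjusted p = 0.000175. In each of the 3 the day 50 libraries lay close together and above all day 40 libraries. Hsp70 genes rose by 1.50 (Hsp70Bb), 1.46 (Hsp70Bbb), 1.25 (Hsp70Aa) and 1.04 (Hsp70Bc), but these are near-identical copies whose reads can be split among them. Only Hsp70Bc of these 4 was called without day 40 replicate 1. Hsc70-1, a family member of constitutive type, fell by 0.76.

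The 3 small heat shock genes that rose sit within a few kilobases of each other on chromosome arm 3L, and their promoters over the same window are shown to compare a motif. Capitals mark the heat shock element core, searched as GAANNTTC and TTCNNGAA on both strands, which is found in 15.9% of all 12572 promoters. The window of Hsp26 holds 3 matches, that of Hsp23 holds 2 and that of Hsp27 none, which says only that these letters are not in that window.
Hsp26 (chr3L:9377378-9377677, strand -): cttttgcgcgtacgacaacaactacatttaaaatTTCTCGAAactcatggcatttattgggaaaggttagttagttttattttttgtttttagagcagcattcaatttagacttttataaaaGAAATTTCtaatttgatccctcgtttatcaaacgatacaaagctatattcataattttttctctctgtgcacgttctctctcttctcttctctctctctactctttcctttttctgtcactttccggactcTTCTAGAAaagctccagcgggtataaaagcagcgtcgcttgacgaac
Hsp23 (chr3L:9381632-9381931, strand +): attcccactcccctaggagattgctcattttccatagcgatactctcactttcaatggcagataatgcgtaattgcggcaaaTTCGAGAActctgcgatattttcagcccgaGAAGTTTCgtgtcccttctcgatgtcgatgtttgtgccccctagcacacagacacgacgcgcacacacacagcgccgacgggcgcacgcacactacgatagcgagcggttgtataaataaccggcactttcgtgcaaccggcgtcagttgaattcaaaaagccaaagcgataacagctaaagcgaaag
Hsp27 (chr3L:9383813-9384112, strand +): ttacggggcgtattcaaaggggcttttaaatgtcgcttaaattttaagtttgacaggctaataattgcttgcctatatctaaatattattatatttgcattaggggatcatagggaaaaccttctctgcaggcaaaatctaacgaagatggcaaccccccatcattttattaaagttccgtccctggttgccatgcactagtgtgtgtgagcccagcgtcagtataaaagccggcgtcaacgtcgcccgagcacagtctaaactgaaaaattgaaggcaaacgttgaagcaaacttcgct

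Further genes that rose lay outside these lists and were picked after their values were seen. Arc1, which encodes a Gag-like protein that forms capsids and acts at synapses, gave 172205, 170097 and 158054 at day 40 and 466068 and 551343 at day 50, a difference of 1.60 ± 0.06 (SE), adjusted p = 3.9e-16. Arc1 was abundant at both ages, and the spread within each age was small beside the step. Its neighbour and paralog Arc2 rose by 0.74 from a far lower level, with 717, 644 and 670.1 at day 40 and 1019 and 1249 at day 50. The transcript of mah gave 1582, 1509 and 1441 at day 40 and 3964 and 4210 at day 50, a difference of 1.44 ± 0.10 (SE), adjusted p = 4.63e-11. TrpA1, a cation channel opened by heat and irritants, rose by 0.84, with 278, 296 and 308 at day 40 and 488 and 566 at day 50. Hayan, a serine protease of the melanization and Toll cascades, rose by 0.69, and Sting, a sensor in antiviral immunity, by 0.53. Among cytokines, upd2, a leptin-like ligand of the JAK-STAT pathway, was the single call among 14 genes of the Turandot and JAK-STAT list, with 110.0, 99.7 and 91.8 at day 40 and 152 and 207 at day 50 and a difference of 0.82. The median of that list was 0.51, and 0.24 with 2 genes called when day 40 replicate 1 was left out.

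Genes of the DNA damage response and some stress-induced genes were gathered into a list of 24 tested genes after some had been seen to rise, so their count is a description. Among them, 6 rose and 1 fell. Ku80, an end-joining protein, gave 709, 687 and 665 at day 40 and 1104 and 1106 at day 50, a difference of 0.69 ± 0.10 (SE), adjusted p = 2.6e-05. Its partner Irbp (Ku70) had a difference of 0.49, just under the size required for a call, and of 0.53 without day 40 replicate 1 (adjusted p = 3.41e-05), where it was called and 7 genes of the list rose. RPA1, which coats single-stranded DNA, gave 3047, 2978 and 3108 at day 40 and 4314 and 4386 at day 50 and a difference of 0.51. Gadd45, a stress-induced signalling gene, rose by 0.87, RnrL, the large subunit of ribonucleotide reductase, by 0.75, PolZ2, a subunit of a translesion polymerase, by 0.74, and Ets21C, a stress-induced transcription factor, by 1.06. Claspin, a replication checkpoint gene, fell by 0.85, and p53 itself had 455, 454 and 463 at day 40 and 473 and 537 at day 50, with a difference of 0.14 and an adjusted p of 0.346.

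Storage proteins made by the fat body fell. Of 18 genes of the fat body, yolk and storage list none rose and 4 fell, with a median difference of -0.45. Lsp2, a larval serum protein that serves as an amino acid store, gave 1467, 3145 and 3669 at day 40 and 350.1 and 229 at day 50, a 0.105-fold level with a difference of -3.18 ± 0.50 (SE), adjusted p = 0.000143. Replicate 1 of day 40 was the lowest of its group, and without it the difference was -3.58. Lsp1beta, a second storage protein, was more even, with 3574, 3477 and 3617 at day 40 and 961 and 956 at day 50 and a difference of -1.89 ± 0.19 (SE), adjusted p = 3.24e-07, and Lsp1alpha fell by 1.78. Of the 18 genes, 15 had a difference below zero. The 7 defining markers of fat body summed to 473353 to 637700 at day 40 and 511755 to 601545 at day 50, nearly all of it apolpp, the lipid carrier of the blood, whose groups overlapped. Lsp2 was the one marker called, but to, Yp2 and Yp3 also had both day 50 libraries below all day 40 libraries: to had 1607, 1226 and 1631 at day 40 and 934 and 1084 at day 50, and Yp2, a yolk protein, had 182, 242 and 249 against 96.4 and 57.7. Such a position was common, as it held in 18.4% of all linear genes. The groups of Yp1 and Fbp1 overlapped, as did those of apolpp. The part of the amount of fat body in these falls was not tested. The gene tobi, an α-glucosidase that responds to insulin-like peptides, gave 13466, 11061 and 12372 at day 40 and 2083 and 2018 at day 50, a difference of -2.58 ± 0.30 (SE), adjusted p = 2.31e-06. Mdr50, an ABC transporter, gave 2881, 3166 and 3280 at day 40 and 679 and 482 at day 50, a difference of -2.44 ± 0.27 (SE), adjusted p = 6.52e-07.

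**Figure D2:**
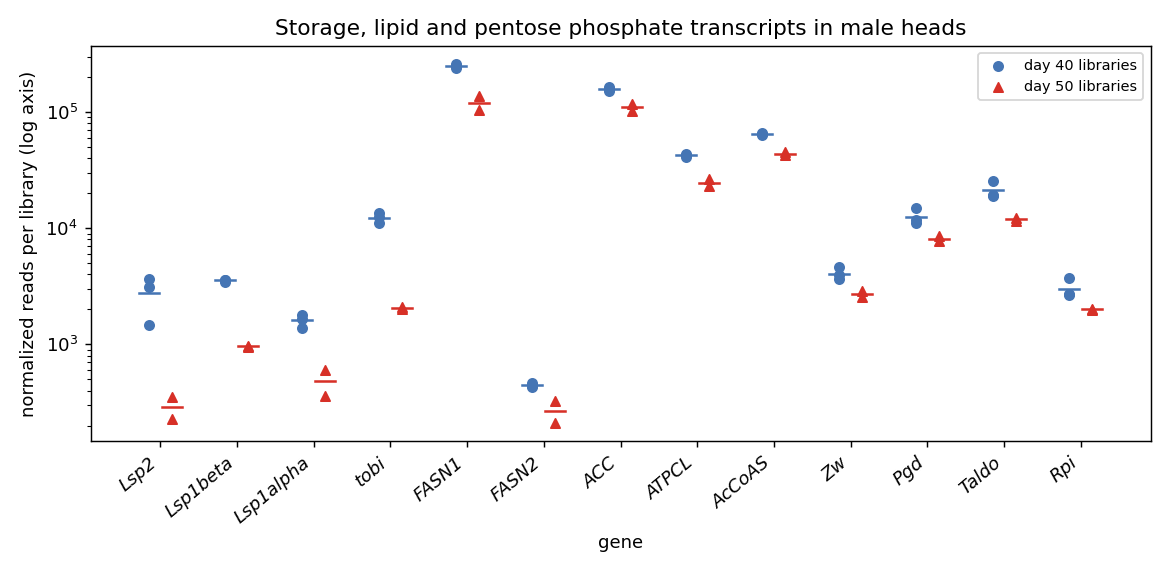
Normalized reads (log axis) of 13 storage, lipid and pentose phosphate genes that fell in male heads, with circles for the 3 day 40 libraries, triangles for the 2 day 50 libraries and bars for group means. In every gene shown the day 50 libraries lie below all day 40 libraries, and the group means are farthest apart in Lsp2.

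The enzymes that build fatty acids fell together in amounts smaller than those of the storage proteins. This list, and the next, were made after FASN1 and its neighbours in the pathway had been seen among the calls, so the counts describe the genes and test nothing. Of 10 genes tested, 7 fell and none rose, with a median difference of -0.55. ATPCL, which makes cytosolic acetyl-CoA from citrate, gave 43156, 41227 and 43063 at day 40 and 26303 and 23115 at day 50, a difference of -0.78 ± 0.08 (SE), adjusted p = 1.81e-07. AcCoAS, which makes acetyl-CoA from acetate, gave 65997, 63873 and 64240 at day 40 and 42424 and 45237 at day 50 and a difference of -0.56. ACC, the carboxylase of the committed step, gave 165225, 157594 and 152196 at day 40 and 118575 and 102787 at day 50 and a difference of -0.52. FASN1, the main fatty acid synthase, fell to about 0.483 of its level, with 260085, 239989 and 247703 at day 40 and 136570 and 104396 at day 50 and a difference of -1.06 ± 0.12 (SE), adjusted p = 5.18e-07. FASN2, a second synthase read far less, gave 463, 432 and 435 at day 40 and 322 and 210.2 at day 50 and a difference of -0.77. Desat1, which puts the first double bond into the chain, and Men, the malic enzyme that supplies NADPH, had differences of -0.56 and -0.55. The regulators SREBP and SCAP were not called, with differences of -0.10 and 0.04. Without day 40 replicate 1, ACC was at -0.49 and no longer passed the size required, and the other 6 were called.

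The pentose phosphate pathway, the other main source of NADPH, had 7 genes tested, of which 5 fell, with a median difference of -0.58. Zw, the glucose-6-phosphate dehydrogenase of the first step, gave 4615, 3661 and 3922 at day 40 and 2872 and 2552 at day 50, a difference of -0.58 ± 0.12 (SE), adjusted p = 0.00119. Pgd, the second dehydrogenase, gave 14950, 11090 and 11722 at day 40 and 8584 and 7716 at day 50, a difference of -0.62. In the non-oxidative branch, Taldo (transaldolase) gave 25560, 18880 and 19443 at day 40 and 12263 and 11537 at day 50 and a difference of -0.83, Rpi (ribose-5-phosphate isomerase) a difference of -0.57 and CG8036 (a transketolase) a difference of -0.74. The remaining 2, Pgls and Rpe, were at -0.32 and -0.44 and were not called. Day 40 replicate 1 held the highest day 40 value in all 7, and without it 2 of the 7 were called, Taldo and CG8036, at -0.69 and -0.68, while Zw, Pgd and Rpi were at -0.48, -0.49 and -0.42. With GC-corrected values the count was 5. Glycolytic enzymes had no call among 14 tested, with a median difference of -0.24, and 1 was called higher without day 40 replicate 1. In 11 of the 14 both day 50 libraries lay below all day 40 libraries, and in 2 they lay above. The sugar-responsive transcription factor sug rose by 0.61, with 528, 480.4 and 782 at day 40 and 889 and 887 at day 50.

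Large falls were also seen in genes outside these lists. CAH5, a carbonic anhydrase, gave 443, 403 and 486 at day 40 and 27 and 51.1 at day 50, a 0.088-fold level with a difference of -3.54 ± 0.40 (SE), adjusted p = 8.31e-07. The trypsin-like protease gene CG8329 gave 16907, 19141 and 19739 at day 40 and 2190 and 2956 at day 50, and CG7829 gave 861, 793 and 868 at day 40 and 97.4 and 147 at day 50, with differences of -2.87 and -2.80. The protease genes CG9676 and CG3088 gave 12210, 11792 and 12646 at day 40 and 2470 and 2319 at day 50 and 14674, 15230 and 16215 at day 40 and 3613 and 3594 at day 50, with differences of -2.35 and -2.09. CG8343 and CG11211, neighbours on chromosome arm 2R, fell by 2.62 and 3.24, with 19026, 16900 and 18229 at day 40 and 2452 and 3520 at day 50 for the first. All of these genes had 2 day 50 libraries far below 3 even day 40 libraries. CG8329 had its highest male mean at day 10, at 50747 normalized reads, against 984, 23874 and 2573 at days 0, 30 and 50. CheB38b and CheB38a, chemosensory genes that adjoin each other on 2L, fell by 2.93 and 2.52, but day 40 replicate 1 was far above its companions, with 268, 46.5 and 56.5 at day 40 and 10.6 and 11.1 at day 50 for CheB38b. CheB38a was not called without that library (adjusted p = 0.0868), nor without either day 50 library (0.0737 and 0.0961).

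Several neuropeptide genes fell. Of 30 neuropeptide genes tested, 6 fell and none rose, against 1.8% and 1.6% of all linear genes. Their median difference was -0.20. Nplp3 gave 2105, 2262 and 2441 at day 40 and 744 and 752 at day 50, a difference of -1.60 ± 0.10 (SE), adjusted p = 4.19e-11. Its male mean was lower at each later age, with 225256, 16134, 8849, 4560, 2269 and 748 from day 0 to day 50. Its female difference was -1.35, and the test between the sexes was not passed (adjusted p = 0.485). Dsk, the satiety peptide drosulfakinin, gave 2078, 1842 and 2125 at day 40 and 1133 and 1070 at day 50, a difference of -0.87 ± 0.07 (SE), adjusted p = 2.91e-09. Ilp5 and Ilp2, insulin-like peptides made by the same group of brain cells as Dsk, gave 264, 173 and 240.1 at day 40 and 88.7 and 73.3 at day 50 and 5388, 4174 and 4378 at day 40 and 3017 and 3118 at day 50, with differences of -1.45 and -0.59. Mip and Nplp4 had differences of -0.56 and -0.83. Ilp2 was at -0.48 without day 40 replicate 1, under the size required. Neuronal markers and channels gave 1 call: of 26 neuron and synapse genes 1 rose and none fell, and of 20 voltage-gated channels none was called. Both day 50 libraries lay below all day 40 libraries in 10 of the 26 and 8 of the 20, against 18.4% of all linear genes. They lay above them in 0 of either list. The one that rose was ple, the tyrosine hydroxylase that makes dopamine precursor, with 5388, 3540 and 3979 at day 40 and 5113 and 8739 at day 50, so its groups overlapped, and it was not called in edgeR or with GC-corrected values.

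Eye genes gave few calls. None of the 7 rhodopsins or the 21 phototransduction genes passed the size required, and their medians were -0.17 and -0.08. Both day 50 libraries lay below all day 40 libraries in 6 of the 7 and 12 of the 21, and above them in 0 and 3. Over all linear genes these shares were 18.4% and 17.6%. The main rhodopsin gene ninaE gave 1070160, 1036000 and 1050470 at day 40 and 864498 and 881636 at day 50, a difference of -0.27 ± 0.04 (SE), adjusted p = 2.28e-05, which passed the p threshold and not the size. Arr2, the main arrestin, gave 437327, 400805 and 406718 at day 40 and 322145 and 332195 at day 50 and a difference of -0.34. Of 16 genes for the retinal chromophore and eye pigments, 4 fell and 1 rose. Pdh, a dehydrogenase of the chromophore cycle, gave 12725, 10896 and 12259 at day 40 and 6967 and 6754 at day 50, a difference of -0.80 ± 0.07 (SE), adjusted p = 5.13e-09, and rdhB, ninaD and se had differences of -0.51, -0.68 and -0.74. The gene w, whose product carries pigment precursors into granules, rose, with 585, 638 and 581 at day 40 and 1138 and 1285 at day 50 and a difference of 1.01 ± 0.07 (SE), adjusted p = 2.95e-10. The lens protein gene retinin gave 10296, 8360 and 9706 at day 40 and 4358 and 3716 at day 50, a difference of -1.23 ± 0.07 (SE), adjusted p = 7.77e-13.

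Chemosensory and cuticle genes gave scattered calls. Over all linear genes 1.6% rose and 1.8% fell, so the few receptor calls below say little about receptors as a group. Of 33 odorant-binding protein genes none rose and 4 fell, and Obp99b gave 3666, 2046 and 3608 at day 40 and 1006 and 603 at day 50, a difference of -1.95. Obp56h was lower in both day 50 libraries, with 174, 179 and 258 at day 40 and 73.3 and 85.1 at day 50, and Obp19b and Obp56g had differences of -1.51 and -0.60. Obp19b and Obp56g lost the call without day 40 replicate 1. One of 26 odorant receptors, Or1a, fell by 1.16, and 2 of 56 gustatory and ionotropic receptors, Ir31a and Gr33a, fell by 1.65 and 0.75. Neither of these 2 was called without day 40 replicate 1. Of 70 cuticle protein genes 4 rose and 7 fell, or 3 and 6 without day 40 replicate 1, where also 1 odorant-binding protein gene rose and 2 fell. TwdlT gave 248, 219 and 203 at day 40 and 472 and 499.6 at day 50, a rise of 1.12, and Cpr11B gave 755, 746 and 878 at day 40 and 396 and 278 at day 50, a fall of 1.25. Cpr47Ef was highest in day 40 replicate 1, with 1922, 695 and 718 at day 40 and 395 and 172 at day 50, and fell by 1.91. Ccp84Ab, at a few reads, had a difference of 2.29.

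Detoxification genes moved both ways, where over all linear genes 1.6% rose and 1.8% fell. The largest rise among all named genes was that of GstD5, a glutathione transferase, with 48.7, 59.8 and 34.3 at day 40 and 1025 and 1109 at day 50, a 22.4-fold mean and a difference of 4.49 ± 0.65 (SE), adjusted p = 2.27e-05. Its cluster neighbours GstD3 and GstD9 rose by 1.26 and 0.57, GstE1 and GstE8 by 0.71 and 0.54, whereas GstD8 and GstD11 fell by 1.76 and 0.79, so that 5 of 32 tested transferases rose and 2 fell. GstD8 and GstD11 were not called without day 40 replicate 1. The metallothioneins, which bind copper and zinc, also split: MtnB gave 31.3, 32.3 and 38 at day 40 and 216 and 118 at day 50, a difference of 2.21, while the far more abundant MtnA gave 36438, 35621 and 37916 at day 40 and 21482 and 20124 at day 50, a difference of -0.82 ± 0.09 (SE), adjusted p = 2.89e-07, and MtnE fell by 0.69. Among 107 cytochrome P450 and UDP-glycosyltransferase genes 2 rose and 6 fell, and Cyp6g1, known from DDT resistance, gave 39399, 36626 and 37664 at day 40 and 26166 and 23694 at day 50, a difference of -0.61. Cyp4d21 fell by 0.82, and Ugt36F1 and Cyp305a1 had differences of 0.65 and -0.64. Of further named genes, CG43920, CG45045, CG10073 and frac rose by 2.51, 2.16, 2.06 and 1.82, and CG18130 fell by 2.49. MtnB, CG43920 and CG45045 were not called without day 50 replicate 1 (adjusted p = 0.132, 0.134 and 0.107), and CG18130 was not called without day 50 replicate 2 (0.2). The phosphatase genes Alp10 and Alp9 rose by 1.27 and 1.19 and were the only calls among 18 digestive enzyme and phosphatase genes.

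Most basic cell machinery showed no call at this threshold. No member was called among 84 cytosolic and 71 mitochondrial ribosomal proteins, 77 oxidative phosphorylation subunits, 37 proteasome subunits, 32 aminoacyl-tRNA synthetases, 20 autophagy genes, 14 clock genes, 14 glial markers, 28 muscle filament genes, 6 histones, 7 dosage compensation genes and 19 genes of circRNA production and RNA editing. Their medians lay between -0.17 for oxidative phosphorylation and 0.09 for muscle filaments. Over all genes 1.6% rose and 1.8% fell, so a list as short as the 6 histones would seldom hold a call. Of the 77 oxidative phosphorylation subunits, 37 had both day 50 libraries below all day 40 libraries and 3 had both above. Over all genes these shares were 18.4% and 17.6%. Part of the shift below zero came with day 40 replicate 1: without it the medians of cytosolic ribosomal and oxidative phosphorylation genes were 0.01 and -0.07 in place of -0.07 and -0.17. When that library was left out, 1 muscle filament gene was called higher. The muscle gene Act57B had a difference of 0.30, which passed the p threshold and not the size. One subunit of the vacuolar proton pump, Vha100-4, fell by 1.63 among 25 tested.

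The same step was taken in females to ask which changes belonged to one sex. Between day 40 and day 50, 136 genes rose and 94 fell in females. Of the genes that rose, 38 did so in both sexes (18.7% of the male list, 27.9% of the female) and of those that fell, 45 did so in both (19.7% and 47.9%). The difference between the male and the female step was itself tested and passed in 457 of 12685 genes (3.6%). It passed in 41 of the 203 genes that rose in males (20.2%) and in 93 of the 228 that fell (40.8%), and in all 134 the male step was the larger one in the direction of the call. The comparison with the 3.6% is no test, since the genes were called on the same male step. Opposite calls in the sexes were seen in 6 genes. Def was one of them, with a female difference of -0.67.

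**Figure D3:**
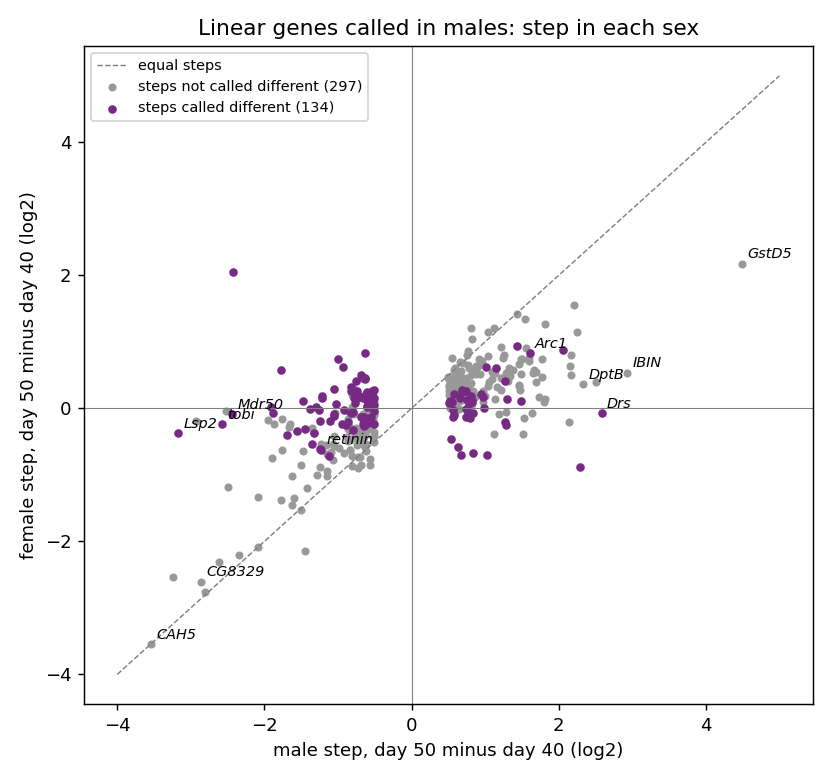
Step from day 40 to day 50 on the log2 scale in males (horizontal axis) and females (vertical axis) for the 431 linear genes called in males, with the 134 genes whose steps differed by the test in purple and the other 297 in grey. CAH5 and CG8329 lie near the dashed line of equal steps, while Drs, Lsp2, tobi and Mdr50 lie near a female step of zero.

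Immune genes differed in part. Drs had a female difference of -0.07 ± 0.36 (SE) and a male-minus-female difference of 2.65, adjusted p = 0.00513. Its female libraries were far apart, with 2860, 6423 and 10640.5 at day 40 and 5454, 4179 and 7421 at day 50. For PGRP-LB, PGRP-LF and PGRP-SD the male step exceeded the female one by 0.72, adjusted p = 0.00866, by 0.71, adjusted p = 0.00886 and by 0.88, adjusted p = 0.0066. DptB, Mtk and AttC had female differences of 0.37, 0.50 and 0.63, none of them called, but the test between the sexes was not passed either, with adjusted p of 0.255, 0.225 and 0.321. PGRP-SB1 and Hsp26 rose in females too, by 0.75 and 0.67, and Arc1 rose by 0.83 in females against 1.60 in males, a difference of 0.77, adjusted p = 8.34e-06. In males the mean of Drs was 728, 2983, 2953 and 18250 at days 0, 30, 40 and 50, whereas in females it was 1037, 6503, 6641 and 5685.

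Storage and lipid genes differed between the sexes. Every called gene of the fatty acid and pentose phosphate lists passed the test between the sexes, and their female differences lay between -0.08 for FASN1 and 0.26 for Taldo. FASN1 differed between the sexes by -0.98, adjusted p = 0.000342, ATPCL by -0.94, adjusted p = 9.57e-06, Taldo by -1.09, adjusted p = 0.00192 and Zw by -0.65, adjusted p = 0.0144. Lsp1beta differed by -1.82, adjusted p = 0.000142, tobi by -2.34, adjusted p = 0.000967, and Mdr50 by -2.35, adjusted p = 0.000232. FASN1 had a mean of 397419 in females and 249259 in males at day 40, and 376047 and 120483 at day 50. Lsp2 in males peaked at day 20, at 15626, and was 9729, 2760 and 289 at days 30, 40 and 50, while in females it was 15054 and 12014 at the last 2 ages. The male day 20 mean rests on 2 libraries, one of them rich in GC. By contrast, CAH5, CG7829 and CG8329 fell in both sexes, and no difference between the sexes was detected: CAH5 had a female difference of -3.55, CG7829 of -2.76 and CG8329 of -2.61, with male-minus-female differences of 0.01, adjusted p = 0.996, of -0.04, adjusted p = 0.975 and of -0.26, adjusted p = 0.867. The standard errors of these 3 differences were 0.53, 0.27 and 0.38.

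**Figure D4:**
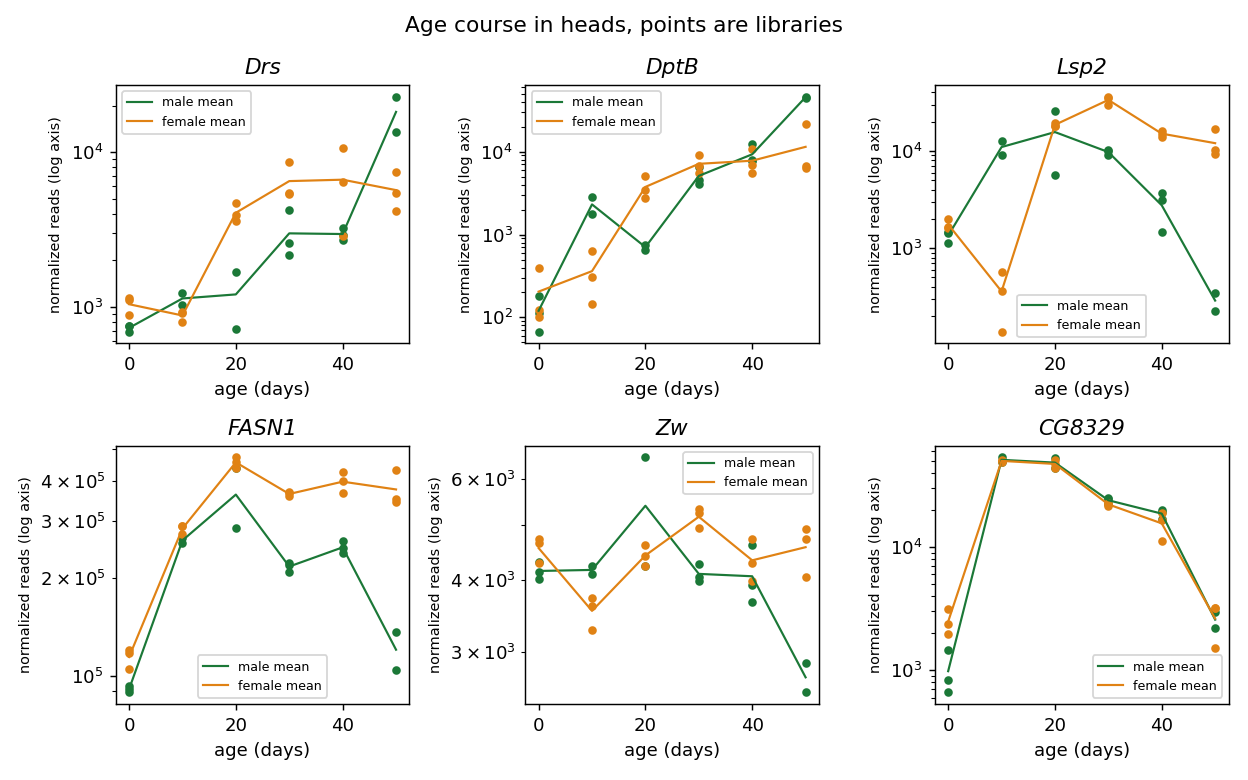
Normalized reads (log axis) against age in days for 6 genes, with a point for each library and a line through group means, males in green and females in orange. Drs goes from a male mean of 2953 to 18250 and FASN1 from 249259 to 120483 over the last step, and CG8329 drops in both sexes.

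circRNAs were measured by reads that cross the back-splice junction. The filtered circRNAs summed to 146151, 161009 and 157926 normalized reads at day 40 and 171629 and 174105 at day 50, so the mean was 1.12-fold higher at day 50 and the groups did not overlap. The two-sided exact permutation test, in the form that doubles the smaller tail, gave p = 0.2. That is the smallest this form can give with 2 against 3 libraries, so it cannot pass a threshold of 0.05. Without day 40 replicate 1, the library with the lowest sum, the ratio was 1.08. As a share of all normalized reads circRNAs made up 0.273%, 0.307% and 0.302% at day 40 and 0.33% and 0.333% at day 50. Linear reads summed to a day 50 to day 40 ratio of 0.989 (exact p = 0.2). Of 2774 circRNAs, 2477, 2523 and 2538 had a read at day 40 and 2552 and 2616 at day 50, a ratio of 1.03 (exact p = 0.2), or 1.02 when every library was drawn down to 126163 reads.

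Single circRNAs were higher more often than lower. The median log2 difference over the 2774 circRNAs was 0.14 and 62.2% of them were above zero, against 0.00 and 50% for linear genes. Both day 50 libraries lay above all day 40 libraries in 17.8% of circRNAs and below them in 6.38%. The median was 0.11 with 59.6% above zero without day 40 replicate 1. When values were scaled to the total of circRNA reads in each library, the median was 0 and 48.8% were above zero. With GC-corrected values, in which each library is centred by construction, the median was 0.02 and 1442 of the 2774 were above zero. By level, the median was 0.16 for the 1155 circRNAs with a mean of 1 to 10 normalized reads, 0.14 for 1277 with 10 to 100, 0.13 for 222 with 100 to 1000 and 0.23 for the 13 with more, of which 12 were above zero.

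Tests on single circRNAs passed rarely. In limma 2 of 2774 were called higher (0.0721%) and 0 lower (0%), while 121 had an unadjusted p below 0.05, 29 of them lower, and edgeR on recovered reads called 7 higher and 0 lower with 149 at an unadjusted p below 0.05. Both calls rested on few reads. One is a circRNA of tn (chr2R:18989776-18998423), with 0 reads in every day 40 library and 12 and 21 reads at day 50. Against a floor of 3 reads per day 40 library, it was at least 4.47-fold higher. The other is a circRNA of Syt1, which encodes the calcium sensor of synaptic vesicle release, with 0 reads at day 40 and 11 and 4 at day 50. Its day 50 replicate 2, at 2.96 normalized reads, lay below the same floor of 3.03, so no least fold is given. CircSyt1 had a mean of 0 in every other group. It passed the circRNA filter only through male day 50 replicate 1, at 10.6, so its call was favoured by the filter. CircTn also passed through female day 50, with a mean of 24.6. Their adjusted p of 0.0387 and 0.0387 rose to 0.271 and 0.807 in edgeR, without any one library circTn lost its call, and circSyt1 was called only without day 50 replicate 2. Of the 2774 circRNAs, 93 had no read in any day 40 library and 98 had none in either day 50 library. Among them, 15 had reads in both day 50 libraries and none at day 40, circTn and circSyt1 included. Another 6 had reads in all 3 day 40 libraries and none at day 50. These counts cannot be compared, since the rules need reads in 2 or in 3 libraries and the day 50 libraries were deeper. A circRNA without reads at either age also passed the filter only by reaching 10 in some library, which could be of the other age. Besides circSyt1, the circRNA at chr3L:17400355-17401217 passed only through a male day 50 library, replicate 2, at 11.8.

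**Figure D5:**
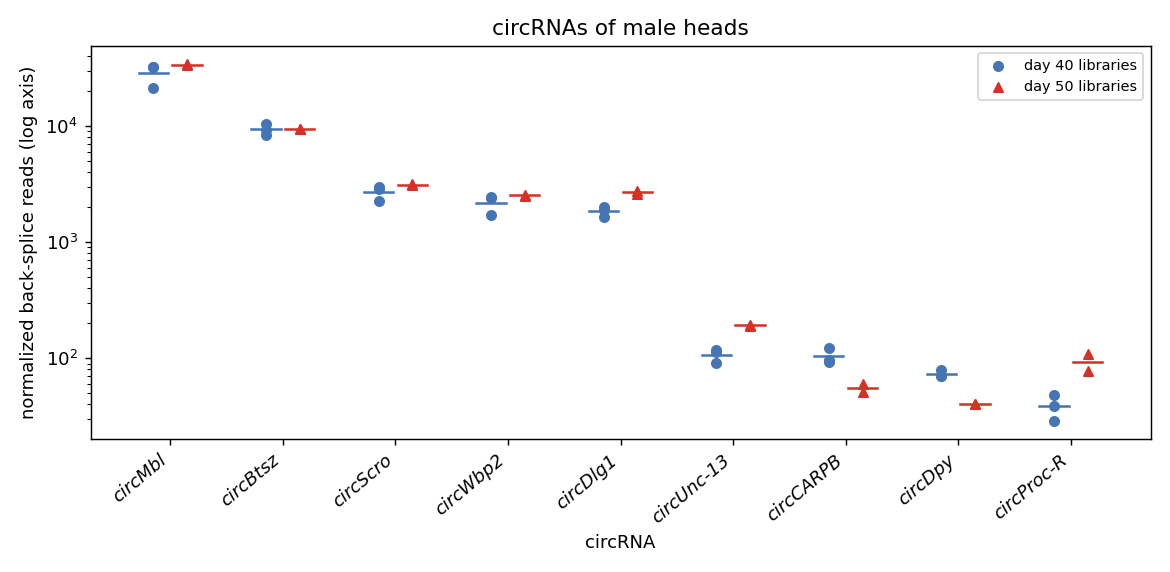
Normalized back-splice reads (log axis) of 9 circRNAs of male heads, the 5 with the highest mean and 4 with a small p, with circles for the 3 day 40 libraries, triangles for the 2 day 50 libraries and bars for group means. CircDlg1, circUnc-13 and circProc-R are higher in both day 50 libraries, circCARPB and circDpy are lower, and circBtsz overlaps.

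Among well-read circRNAs the values with the smallest p were those of circUnc-13 and circDlg1, neither of them called. The host gene unc-13 encodes a factor that primes synaptic vesicles, and its circRNA gave 91.5, 117 and 113 at day 40 and 195 and 191 at day 50, a difference of 0.85 ± 0.20 (SE), adjusted p = 0.0542. The host gene dlg1 encodes a scaffold of synapses and cell junctions, and circDlg1 gave 1646, 2000 and 1889 at day 40 and 2620 and 2736 at day 50, a difference of 0.54 ± 0.13 (SE), adjusted p = 0.0542. In both the groups were far apart relative to the spread within them, and edgeR called both, with adjusted p of 0.0195 and 0.0489. Without day 40 replicate 1, the lowest library for both, limma gave 0.74 and 0.46, with adjusted p of 0.582 and 0.597. The linear reads of these hosts had differences of 0.11 and 0.11. Over the male course circDlg1 had means of 149, 352, 889.9, 1220, 1845 and 2678 from day 0 to day 50, and its female step was 0.49. CircProc-R, from the gene of a proctolin receptor, gave 29, 48.4 and 38.9 at day 40 and 77.2 and 108 at day 50, a difference of 1.24 ± 0.36 (SE), adjusted p = 0.26.

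CircCARPB and circDpy had lower values at day 50. CircCARPB gave 122, 96.8 and 92.7 at day 40 and 59.8 and 51.1 at day 50, a difference of -0.89 ± 0.25 (SE), adjusted p = 0.26. CircDpy, from the gene of a giant cuticle-anchoring protein, gave 78.8, 70.3 and 70.4 at day 40 and 40.5 and 40.7 at day 50, a difference of -0.83 ± 0.24 (SE), adjusted p = 0.26. The groups did not overlap in either, and the linear reads of dpy had a difference of -0.27. The most abundant circRNAs were not called. CircMbl, from the gene of a splicing factor that binds its own circRNA, gave 21354, 32484 and 31990 at day 40 and 33245 and 34378 at day 50, a difference of 0.27 ± 0.27 (SE), adjusted p = 1, and 0.07 without day 40 replicate 1, its lowest library. CircBtsz gave 10414, 9305 and 8452 at day 40 and 9378 and 9346 at day 50, with overlapping groups. CircScro and circWbp2 had differences of 0.22 and 0.23 with adjusted p of 1.

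Each junction sequence below joins the last 20 bases before the back-splice, in lower case, to the first 20 after it, in capitals, 5′ to 3′ on the strand of the host (Release 6 genome). They are shown because a back-splice read is counted only where it crosses this join. All are flanked by AG and GT in the genome, the ends of introns.
circSyt1 (chr2L:2783041-2798836, strand -): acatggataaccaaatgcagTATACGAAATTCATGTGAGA
circUnc-13 (chr4:898393-903471, strand -): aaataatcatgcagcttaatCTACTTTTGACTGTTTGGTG
circDlg1 (chrX:11397825-11398822, strand +): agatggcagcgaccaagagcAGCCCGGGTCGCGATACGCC
circProc-R (chrX:4723178-4725194, strand +): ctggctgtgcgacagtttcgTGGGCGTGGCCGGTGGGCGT
circCARPB (chrX:9811788-9812156, strand +): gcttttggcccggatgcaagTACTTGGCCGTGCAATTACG
circDpy (chr2L:4496247-4513761, strand -): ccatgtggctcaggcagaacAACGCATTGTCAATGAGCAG
circMhc (chr2L:16768584-16777439, strand +): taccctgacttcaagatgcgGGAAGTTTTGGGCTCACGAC

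Whether circRNAs changed apart from their hosts was asked with the ratio of each circRNA to the linear reads of its gene, which include reads of the exons that the circle shares. Of 2594 ratios, limma called 4 higher (0.154%) and 0 lower (0%), with 102 at an unadjusted p below 0.05, 27 of them lower. The other tools were not run on ratios, and the median difference was 0.15 with 63.1% above zero. The 4 were those of circSyt1, circTn, circMhc and circBol, each with at most 2 reads in all day 40 libraries together. The ratio of circSyt1 has the same limit as its call, since the circRNA passed the filter only through a male day 50 library. CircMhc, of muscle myosin heavy chain, had 0 reads at day 40 and 8 and 7 at day 50, and in females its normalized mean went from 1.32 to 42.9. None of the 4 ratios passed in the fit of the 5 libraries alone. The 6 circRNAs from 4 genes that rose had a median difference of 0.53, and the 10 from 7 genes that fell one of -0.07. The 2578 circRNAs of hosts not called had a median of 0.14. The first 2 groups are small, and circRNAs of the same host are not independent. The step of no circRNA differed between the sexes by the test (0 of 2774, 0%, with 76 at an unadjusted p below 0.05).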

How the data were processed

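Heads of CantonS flies were sequenced as total RNA after depletion of ribosomal RNA. Per the study's methods the authors aligned reads with STAR, counted linear genes with featureCounts on dm6, called back-splice junctions with find_circ2, and divided linear and circular reads of a library by one DESeq2 size factor. Versions are not given in the sources used here. The deposited values are therefore a normalized signal and not counts. Whole reads could be recovered in 32 of 33 libraries (within 0.01 reads, 100% of values), the size factor of male day 20 replicate 1 being too near 1 to check, and were used for edgeR and DESeq2. The authors left out 2 male samples, of days 10 and 20, which were not analysed here.

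Linear genes needed a mean of at least 10, and circRNAs a span of at least 50 bases and a mean of at least 1 in all 12 groups or at least 10 in a library. Values were fitted as log2(value + 1) in limma 3.58.1 (R 4.3.3) with 12 group means, an intensity trend and robust variances. A log2 difference on this scale understates the change of low values. A call needed a Benjamini-Hochberg adjusted p below 0.05 and a log2 difference beyond 0.5. Two-sided exact permutation tests, with the smaller tail doubled, compared totals. Replicates are described as biological. Female day 50 replicates 1 and 2 held identical back-splice reads so their mean entered the circRNA fits as 1 replicate.

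The genes named by rule are the 12 called genes with the largest rise and the 12 with the largest fall among those with a mean of at least 20 and no overlap between groups, and for circRNAs up to 8 each way, those of smallest p and the 5 of highest mean. Members, comparison and the 37 gene lists were chosen with earlier results of these data known, and 3 lists and the genes outside the lists and the rule were added after values had been seen. Sequences came from the Release 6 genome, and gene names and exons from BDGP6.54, which named 16111 of 16240 linear identifiers. The host of circScro was named from the ends of its exons. edgeR 4.0.16, DESeq2 1.42.0, other pseudocounts (0.5 and 10), filters, scaling, GC-corrected values, a replicate block and leaving out each library were tried. The code was tested on simulated data.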

Additional observations from a re-analysis of the deposited data

Results flagged for a closer look

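In 43 of 124 genes named above, the male step from day 40 to day 50 differed from the female step by the test of the difference (limma, adjusted p below 0.05). Over all linear genes it differed in 457 of 12685 (3.6%). The values in parentheses are the male step minus the female step on the log2 scale, and in each of these genes the difference had the sign of the male step. Many of the 124 genes were named because their male step was called, and that step is part of the difference. Neither the count nor the sign is therefore a test.

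The male step was higher for the immune genes Drs (2.65), Def (1.50), PGRP-LB (0.72), PGRP-LF (0.71) and PGRP-SD (0.88), and also for Alp10 (1.47), Arc1 (0.77), CG10073 (1.18), Ccp84Ab (3.17), Hsp23 (0.86), RnrL (0.63), TrpA1 (0.90), mah (0.50) and w (0.38). It was lower for the storage and transport genes Lsp2 (-2.80), Lsp1beta (-1.82), Lsp1alpha (-2.35), tobi (-2.34) and Mdr50 (-2.35). Among enzymes of fatty acid synthesis it was lower for FASN1 (-0.98), ATPCL (-0.94), FASN2 (-0.85), AcCoAS (-0.73), Men (-0.71), Desat1 (-0.62) and ACC (-0.59), and among those of the pentose phosphate pathway for Taldo (-1.09), CG8036 (-0.92), Pgd (-0.83), Rpi (-0.70), Zw (-0.65) and Pgls (-0.55). It was also lower for the brain peptides Dsk (-0.67), Ilp5 (-1.15) and Mip (-0.38), and for Cpr11B (-1.06), Cpr47Ef (-1.93), Cyp6g1 (-0.64), MtnA (-0.74), MtnE (-1.20), Obp56h (-0.96), Pdh (-0.48) and retinin (-0.60). Ccp84Ab rested on few reads at both ages.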

How the results depend on the processing

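The 44 features named by rule, 24 linear genes and otherwise circRNAs, were followed with each library left out, in edgeR and with GC-corrected values. Only 2 circRNAs had been called, so part of the values below are features that stayed uncalled. List members that lost a call without day 40 replicate 1, as given above, are outside this count and the lost calls named below. Of 308 values, 272 kept direction and side of the threshold, 25 lost the call, 6 gained it and 5 changed sign. All 5 sign changes were those of circBtsz, which lies at 0.00 log2 units, with -0.0724 to 0.0782 without 1 library (-0.0031 without male day 40 replicate 2, -0.0724 without replicate 3, -0.0015 without day 50 replicate 1), -0.0045 in edgeR and -0.110 with GC-corrected values. Leaving out 1 library gave 119 to 193 genes higher, with 119 without male day 50 replicate 2, and 154 to 273 lower. A lone day 50 library was assumed to vary like the other groups. With 5 libraries alone in the fit 142 genes were lower. Calls of CG43920, DptB, MtnB, Mtk, CG45045, AttC, CheB38a and CG18130 were lost without 1 library, with adjusted p from 0.0516 (AttC) to 0.2 (CG18130).

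circRNA calls depended on the setting. Against 2 higher, leaving out 1 library gave 0 to 2, and 0 were higher with 5 libraries alone, with scaling to circRNA reads, with GC-corrected values, with a mean of at least 10 and with a replicate block. There were 5 with a pseudocount of 0.5, 8 with 10, 7 in edgeR, 7 in DESeq2, 24 with no filter and 7 without the GC-rich male day 20 library, an alternative added after seeing the data. DESeq2 gave 1 lower and no filter 2. Ratios gave 0 to 5 higher without 1 library and 0 with 5 libraries alone. With a pseudocount of 10, 1 circRNA step differed between the sexes. The cause was not tested.

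The replicate block called 144 linear genes higher and 162 lower. Replicate numbers 1 and 2 are shared by both ages, and deviations of same-numbered libraries correlated at 0.198 and 0.321, but with 2 pairs they share only a number. With 2 against 3 libraries the exact test, with its smaller tail doubled, cannot go below 0.2, and the 2 circRNA calls rested on few reads.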

Other observations

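The circRNA at chr3R:19886301-19886520, which the files name intergenic, lies within the coordinates of ninaE (chr3R:19886255-19888206), the main rhodopsin gene. It had 11.6, 22.8 and 39.9 normalized reads at day 40 and 60.8 and 77 at day 50, a difference of 1.59 ± 0.40 (SE) with an adjusted p of 0.124 in limma, so it was not called. Its groups did not overlap, and its day 40 libraries were far apart. The linear reads of ninaE went the other way, with a difference of -0.27.

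Within the cytochrome P450 and UDP-glycosyltransferase list, the male step differed from the female step in 20 of 107 genes, with medians of -0.11 in males and 0.07 in females. Among digestive enzymes and phosphatases it differed in 7 of 18, with medians of -0.10 and 0.12, and among glycolytic enzymes in 5 of 14, with medians of -0.24 and 0.15. Over all linear genes the steps differed in 457 of 12685 (3.6%). These lists were singled out after their values were seen, so the comparison with that share is no test. Without day 40 replicate 1 the male medians were -0.06, -0.09 and -0.14 in the same order.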
